A study of Mus musculus with 36 samples.

Results

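The semaphorins and their receptors, the plexins and neuropilins, were followed through fracture healing in mice with and without mature lymphocytes. All probes of the array whose gene symbol begins with Sema and a digit or with Plxn, or is Nrp1 or Nrp2, were taken, which gave 48 of 25697 probes and 28 of 18138 genes. They were 35 probes for 18 semaphorins, 8 probes for 8 plexins and 5 probes for the 2 neuropilins. Of the 48, 21 probes for 16 genes had a mean log2 intensity over all arrays above 4.72, the median of all probe means, and were tested together with the other probes above it (12848 in all). Values near or below that level are called near the floor.

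Callus was compared in WT C57BL/6N mice and in RAG1-/- mice, the same strain with both copies of Rag1 deleted in the whole body. RAG1-/- mice lack mature T and B cells, because these cells cannot rearrange their receptor genes and their development stops early. All mice were male and 8 weeks of age, and those that gave callus had a closed fracture of the left femoral shaft over an intramedullary pin. Callus with adjoining shaft bone was taken 3, 7, 14, 21 and 28 days later (D3 to D28), and the same region of intact femora stood for D0, although the labels call it callus too. Each of the 12 combinations of genotype and day was 1 pool of RNA from 5 mice, read on 3 arrays, 36 in all. The arrays of a group are therefore technical repeats, and within a day the p-values measure the spread between arrays and not between mice. In bulk tissue, fewer cells of a type and less RNA per cell cannot be told apart.

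Semaphorins are a family of ligands that share a sema domain and steer growing axons, vessels and migrating cells. The class 3 members are secreted and mostly signal through a neuropilin, which binds the ligand, joined to an A-type plexin, which carries the signal into the cell. Members of classes 4 to 7 are membrane bound or anchored by a lipid and mostly bind plexins directly, and class 7 also acts through an integrin. In bone, Sema3a from osteoblasts restrains osteoclasts through Nrp1, Sema4d from osteoclasts restrains osteoblasts through Plxnb1, and Sema6d acts on osteoclasts through Plxna1 and Trem2. Several class 4 members and Sema7a also act between immune cells, and the neuropilins are co-receptors for vascular endothelial growth factors.

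Some libraries stood apart before any gene was considered. The 3 arrays of each RAG1-/- pool correlated at 0.983 to 0.995 over all probes of the array, tested or not. Those of the WT pools correlated at 0.885 to 0.994. Of the 18 WT arrays, 8 were closer to an array of another group than to any of their own, and none of the RAG1-/- arrays was. The 6 WT arrays of D3 and D7 scored 91.5 to 99.5 on the first principal component and all others -39.7 to 22.2. WT D14 replicates 2 and 3 correlated at 0.984 with RAG1-/- D21 but at 0.950 and 0.948 with WT D14 replicate 1. Whether these arrays carry the right labels was not tested, and every D14 genotype difference and WT change to D14 rests on them. The median SD of the tested members was 0.19 to 0.40 in WT groups and 0.08 to 0.13 in RAG1-/- groups. The Rag1 probe (ILMN_1217622) was near the floor in both genotypes, with group means of 4.49 to 5.42 in WT and 4.55 to 4.77 in RAG1-/-, and gave no check of the labels.

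Marker lists moved with genotype and day as well, and their part in the results below was not tested. Erythroid markers (7 tested of 9 on the array) had a mean log2 level of 8.47 to 11.77 in the WT groups and 6.19 to 7.73 in the RAG1-/- groups. Osteoblast markers (10 of 12 tested) ran from 7.96 at D0 to 10.50 at D14 in WT, and from 8.97 at D28 to 10.59 at D21 in RAG1-/-. Osteoclast markers (9 of 11) were lowest at D0 and highest at D14 in either genotype, at 6.71 and 8.45 in WT against 6.35 and 8.25 in RAG1-/-. Skeletal muscle markers (12 of 12) were at 10.42 and 10.67 in WT at D3 and D7, against 11.94 and 12.04 in RAG1-/-. Cartilage markers (6 of 13) lay at 5.40 to 6.19 in WT and 6.13 to 7.73 in RAG1-/-, and endothelial markers (11 of 11) at 7.12 to 7.67 and 7.38 to 7.76. Macrophage markers (8 of 9) had WT means of 5.09 to 6.53 and RAG1-/- means of 5.58 to 7.42, and neutrophil markers (9 of 9) WT means of 8.05 to 9.58 and RAG1-/- means of 6.54 to 9.95. Nerve and Schwann cell markers (4 of 8) were at 5.56 to 5.91 in WT and 5.46 to 5.84 in RAG1-/-. T cell markers (5 of 13) and mature B cell markers (2 of 9) had means of 4.61 to 5.53 in every group of either genotype, near the floor. At D3, the day with most member calls, 3 of the 5 T cell markers were lower in RAG1-/- and none higher. Among all tested probes 21% were lower and 26.9% higher. The mean level of these markers at D3 was 5.31 to 5.92 on the WT arrays and 4.96 to 5.24 on the RAG1-/- arrays. At D7 1 was higher and 1 lower (27.4% and 19.3% of all probes). At D21 1 was higher (14.4%) and at D28 1 was lower (9.19%), and none was called at D0 or D14 (19.3% and 3.99% in either direction).

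The members, like all tested probes, were called most often between genotypes in the first week. Most of the members called then were lower in RAG1-/- callus. A probe was called between genotypes at an adjusted p under 0.05 in limma. At D3, 12 of the 21 tested members were lower in RAG1-/- and 1 was higher, against 21% lower and 26.9% higher among all tested probes (47.9% in either direction). At D7, 9 were lower and 2 higher, against 19.3% lower and 27.4% higher among all probes (46.7% together). In either direction, 61.9% of the members were called at D3 and 52.4% at D7, the latter near the share of all probes. The probes called were of 10 of the 16 tested genes at D3 and of 9 at D7, since some genes have more than 1 probe. The median member difference (RAG1-/- minus WT) was -0.86 at D3 and -0.57 at D7, while the median over all tested probes was 0.00 and 0.04.

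At D21 and D28 most calls were of higher levels in RAG1-/-. At D14, 1 of 21 was higher and none lower (2.33% and 1.66% of all probes, 3.99% together), at D21 5 were higher and 1 lower (14.4% and 8.94%), and at D28 6 were higher and none lower (19.1% and 9.19%). In intact bone, 4 members were higher and 1 lower, against 12.6% and 6.72%. The shares called at D0, D21 and D28 (23.8%, 28.6% and 28.6% of the members) lay near those of all probes (19.3%, 23.3% and 28.3%). Calls over 2-fold numbered 1, 9, 7, 0, 4 and 4 from D0 to D28, against 9.33%, 33.1%, 30.7%, 1.05%, 11.4% and 15.6% of all probes. The arrays of the genotypes did not overlap for 12, 14, 15, 6, 10 and 10 of the 21, against 43.4%, 54.1%, 53.2%, 23.8%, 44.6% and 41.5%. At D0 the count of calls was 8 when the WT arrays of D3 and D7 were left out of the shared fit, and at D14 it was 6 when WT D14 replicates 2 and 3 were left out, with Plxna2, Nrp2 and both Nrp1 probes higher and Sema3f (-0.98) and Sema4a (-0.90) lower in RAG1-/-.

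**Figure D1:**
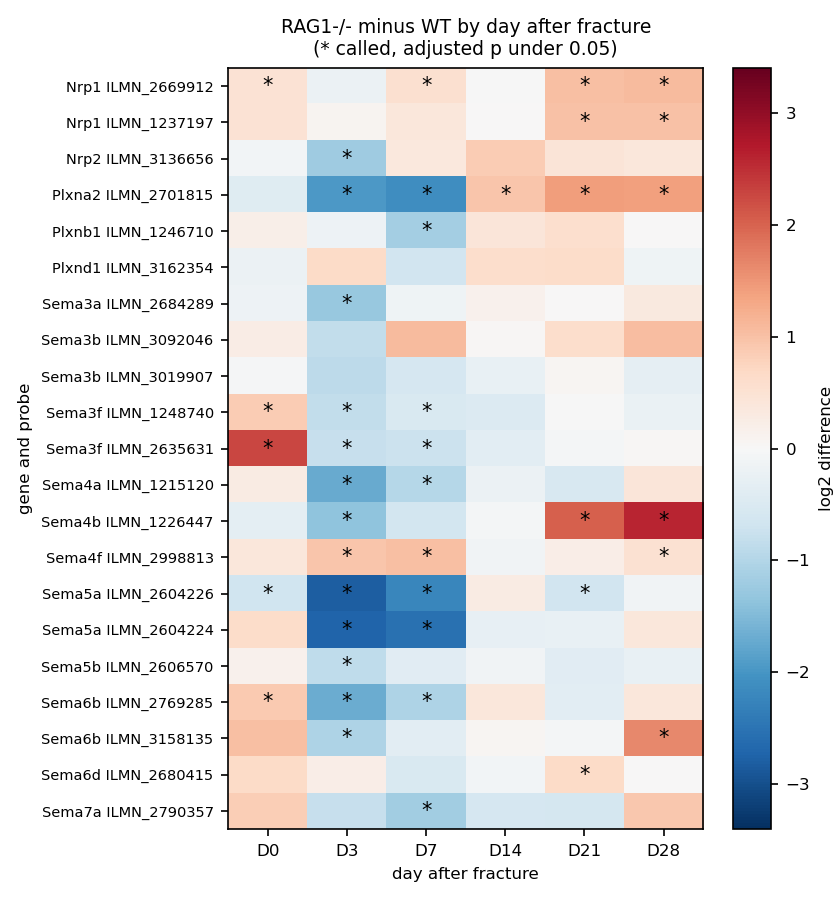
RAG1-/- minus WT log2 difference of the 21 tested member probes (rows) at each day after fracture (columns), with red for higher and blue for lower in RAG1-/- and a star for a call at an adjusted p under 0.05. Stars at D3 and D7 are mostly blue (12 and 9 probes, against 1 and 2 red), and those at D21 and D28 mostly red (5 and 6 probes, against 1 and 0 blue).

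Against intact bone, members rose in WT callus from D3, and the first called increases in RAG1-/- callus came at D14. A change against D0 was called at an adjusted p under 0.01 and over 2-fold. In WT, 11 members rose at D3 and 9 at D7 and none fell, while 11.9% and 11.1% of all probes rose and 14.6% and 14.4% fell (26.5% and 25.4% together). The probes that rose were of 8 of the 16 tested genes at D3 and of 6 at D7. Later WT counts were 3 up and 1 down at D14 (7.49% and 5%, 12.5% together), 4 up and 1 down at D21 (4.44% and 5.84%, 10.3% together), and 2 up and 1 down at D28 (3.21% and 6.85%, 10.1% together).

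In RAG1-/- callus 3 members fell and none rose at D3, where 2.05% of all probes fell and 0.911% rose (2.97% together). None was called at D7 or D28 by limma, where 2.94% and 4.2% of all probes were (0.965% and 1.92% up, 1.98% and 2.28% down), and 7 and 5 members had an unadjusted p under 0.05. At D14, 4 rose and 1 fell (2.32% and 2.42% of all probes, 4.74% together), and at D21 2 rose and 1 fell (3.31% and 4.29%, 7.6% together). A probe entered the test on its mean over all 36 arrays. A probe bright in only a few groups may thus have passed through those groups, as Plxnb1, Sema4f, Sema5b and Sema6d did. Their genotype calls in those groups are among the counts above. The counts describe the members and are not a test of them as a set. All comparisons of 1 genotype with D0 also share the same D0 arrays.

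The change against D0 itself differed between genotypes (adjusted p under 0.05, over 2-fold) for 10 members at D3 and 10 at D7, all with the smaller or more negative change in RAG1-/-, against 10.6% and 8.62% of all probes in that direction and 13.2% and 12.2% in the other (23.9% and 20.8% together). These probes were of 7 genes at D3 and of 8 at D7. At D14 1 member had the larger and 2 the smaller change in RAG1-/- (4.04% and 6.02%, 10.1% together). At D21 the counts were 2 and 2 (4.09% and 3.96%, 8.06% together), and at D28 2 and 2 (5.67% and 3.01%, 8.68% together).

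**Figure D2:**
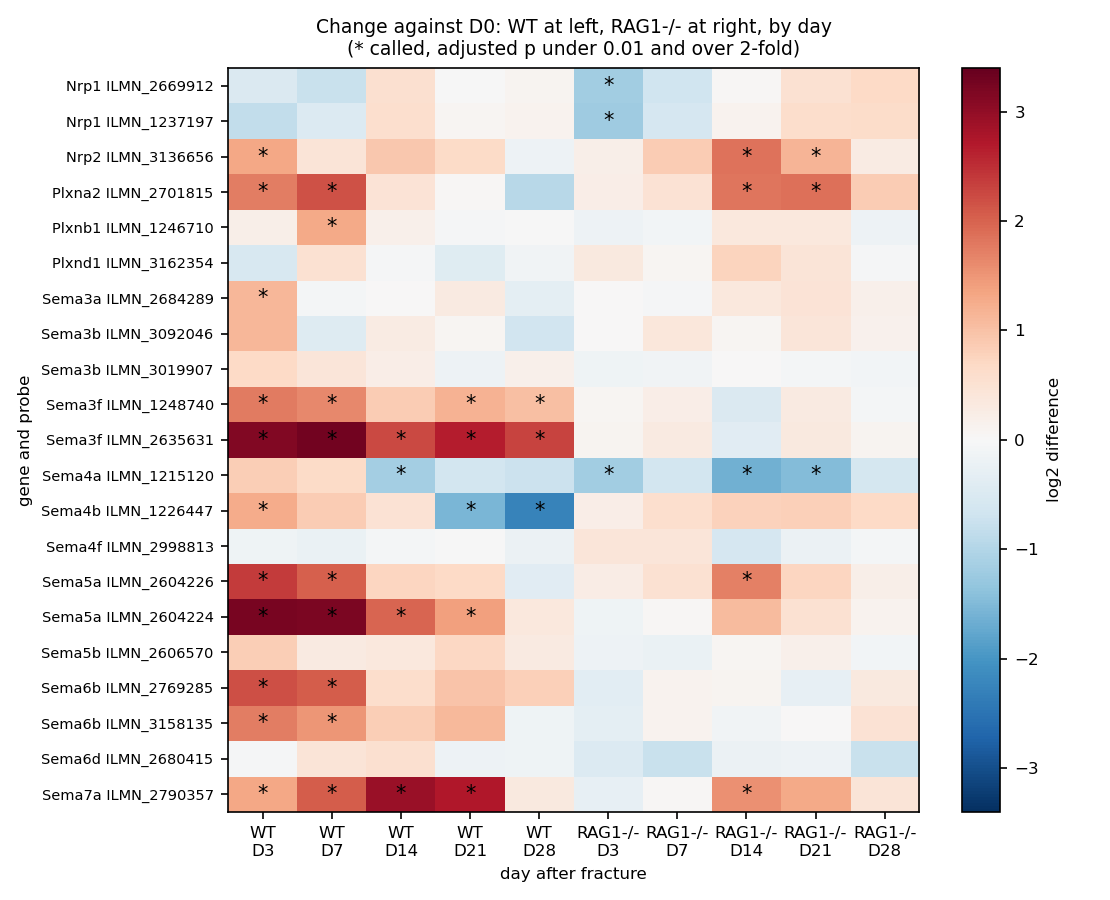
Log2 change against D0 of the 21 tested member probes (rows) in WT (left 5 columns) and RAG1-/- callus (right 5 columns) by day, with a star for a call at an adjusted p under 0.01 and over 2-fold. WT stars cluster at D3 and D7 (11 and 9 probes, all increases), while the RAG1-/- stars for increases lie at D14 and D21 (4 and 2 probes).

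Among the secreted class 3 ligands, Sema3f was set at different levels in intact bone and rose only in WT by these limits. Sema3f, known to repel axons and vessels through Nrp2, lies on chromosome 9, as do Sema3b, Sema7a and Plxnb1, and had 2 tested probes. At probe ILMN_1248740 the WT arrays read 7.44, 7.55 and 7.99 at D0, then 9.50, 9.46 and 9.32 at D3. The RAG1-/- arrays read 8.52, 8.54 and 8.55 at D0 and 8.63, 8.58 and 8.58 at D3. The WT arrays thus lay wholly below the RAG1-/- arrays in intact bone and wholly above them at D3. WT rose by 1.76 at D3 (SE 0.18, adjusted p = 2.63e-09) and by 1.64 at D7 and stayed 1.18 and 1.02 above D0 at D21 and D28. In RAG1-/- the change from D0 lay between -0.49 and 0.30 on all days, and none was called.

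The other Sema3f probe, ILMN_2635631, moved the same way with a larger amplitude. Its WT arrays read 6.33, 4.91 and 4.57 at D0, with replicates 2 and 3 near the floor, and 8.65, 8.36 and 8.26 at D3. Its RAG1-/- arrays stayed between 7.11 and 7.96 on all days. The WT change was 3.16 at D3 and 3.29 at D7 (SE 0.29 for each), and 2.24, 2.66 and 2.31 at D14, D21 and D28, sizes that the floor limits at D0. The genotype difference of 2.26 at D0 gave adjusted p = 0.0621 in the methods' t-test, against 9.91e-07 in limma. At D3 and D7 the gene was lower in RAG1-/- at both probes, by -0.83 and -0.53 at ILMN_1248740 and by -0.79 and -0.72 at ILMN_2635631. The D7 call at ILMN_2635631 was lost when dim probes were kept in the test (adjusted p = 0.0659), with array weights (0.0622) and without the arrays numbered 2 or 3 (0.196 and 0.154), and that at ILMN_1248740 without the arrays numbered 1 or 2 (0.0952 and 0.149). From D14 on neither probe was called in the fit to all arrays, but without WT D14 replicates 2 and 3 the D14 difference at ILMN_1248740 went from -0.47 to -0.98 (adjusted p = 0.0024). Both probes had the same sign of the difference on 5 of the 6 days.

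Sema3a, the osteoblast ligand that acts through Nrp1, was called at D3 alone. Its WT arrays read 5.80, 6.82 and 5.77 at D3 and its RAG1-/- arrays 4.92, 4.66 and 4.94, with no overlap. The difference was -1.29 (SE 0.28, adjusted p = 0.000315), and the WT rise against D0 was 1.12 (adjusted p = 0.00141). All other group means of Sema3a were 4.68 to 5.31, near the floor.

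Sema3b, a secreted ligand that also binds neuropilins, had 2 tested probes and was not called in any comparison. At ILMN_3092046 the WT arrays spread widely (4.94, 4.53 and 7.19 at D21), and the RAG1-/- arrays ran from 5.58 to 6.38. The difference at that probe was 1.07 at D7 (SE 0.45, adjusted p = 0.0508) and 1.05 at D28 (adjusted p = 0.0795). Probe ILMN_3019907 had WT arrays between 4.36 and 6.47 and RAG1-/- arrays between 4.45 and 4.98, and the 2 probes had the same sign on 2 of the 6 days. Sema3c, Sema3e and Sema3g were near the floor throughout and were not tested.

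**Figure D3:**
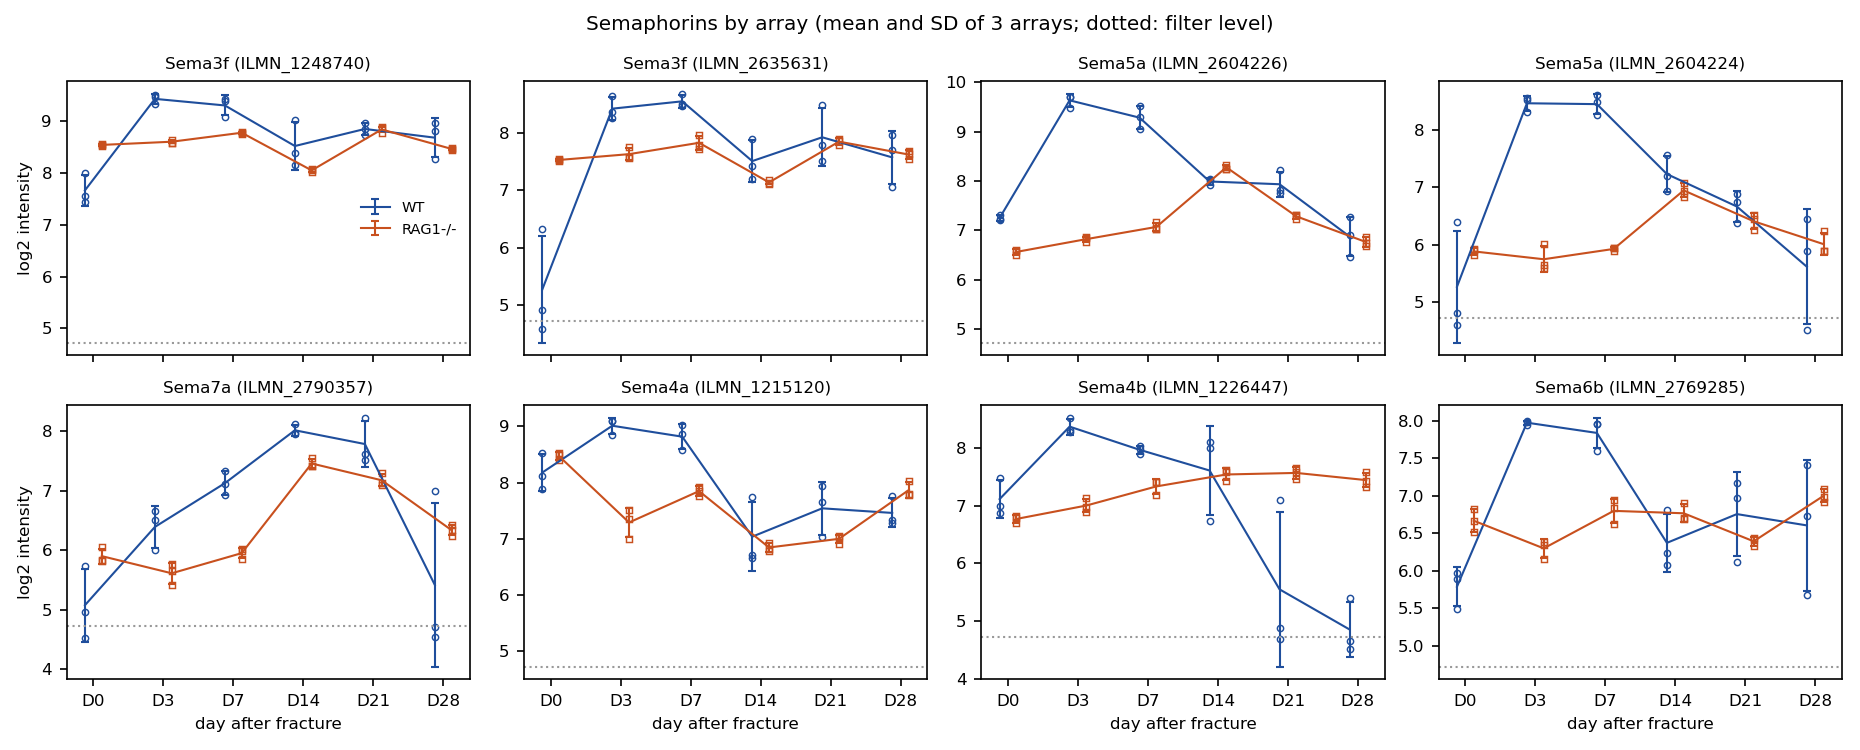
Log2 intensity of 8 semaphorin probes by day after fracture, with WT in blue circles and RAG1-/- in orange squares, an open symbol for each array, lines through the group means, and bars for 1 SD of 3 arrays. The dotted line is the filter level of 4.72. WT means of Sema3f, Sema5a and Sema6b peak at D3 or D7 while the RAG1-/- means do not, and the WT mean of Sema4b falls to 4.85 at D28.

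The class 4 transmembrane semaphorins gave 3 different patterns. Sema4a, a ligand that helps prime T cells, read 8.11, 7.89 and 8.53 in WT and 8.48, 8.39 and 8.53 in RAG1-/- bone at D0, so the genotypes overlapped before fracture. At D3 the WT arrays were at 9.10, 9.09 and 8.85 and the RAG1-/- arrays at 7.00, 7.35 and 7.51. The genotypes had separated, with a difference of -1.72 (SE 0.23, adjusted p = 4.76e-07), or 3.30-fold, and of -0.97 at D7 (adjusted p = 0.00108). In RAG1-/- the gene had fallen by 1.18 at D3, by 1.63 at D14 and by 1.47 at D21, while in WT the only called change was a fall by 1.14 at D14. That WT call was lost without WT D14 replicate 2 (-0.98) or replicate 3 (-0.95), and without both the change was -0.43 (adjusted p = 0.355).

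Sema4b, a membrane semaphorin best known from synapses and neurons, was the member that fell furthest late in WT callus. Its WT arrays read 7.48, 6.99 and 6.87 at D0, 8.53, 8.32 and 8.27 at D3, and 5.41, 4.51 and 4.64 at D28. Its RAG1-/- arrays lay between 6.70 and 7.65 in all 6 groups. WT had risen by 1.26 at D3 and fallen by 2.26 at D28 (SE 0.38, adjusted p = 5.06e-05), to near the floor. RAG1-/- was therefore lower at D3 by -1.37 (adjusted p = 0.00382) and higher at D28 by 2.59 (adjusted p = 9.62e-06), or 6.03-fold, a size that the floor limits.

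At D21 the WT arrays of Sema4b disagreed, at 4.87, 7.09 and 4.68, against 7.65, 7.46 and 7.59 in RAG1-/-. The groups did not overlap, and the difference was 2.02 (adjusted p = 0.000242). It was 1.58 (adjusted p = 0.0652) without the arrays numbered 3, and 2.02 in the methods' t-test (adjusted p = 0.162). The WT D14 arrays read 6.73, 8.00 and 8.11, with replicate 1 the low one, and the RAG1-/- arrays 7.61, 7.59 and 7.42, and no difference was called there.

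Sema4f, which is expressed in neurons and Schwann cells, was near the floor in WT, with all group means between 4.39 and 4.61. In RAG1-/- its means were 5.00 at D0, 5.41 at D3 and 5.41 at D7. It was the only member higher in RAG1-/- at D3, with WT arrays of 4.68, 4.34 and 4.37 and RAG1-/- arrays of 5.31, 5.55 and 5.37. The differences were 0.94 at D3 (SE 0.14, adjusted p = 3.14e-06), 1.02 at D7 (adjusted p = 1.01e-06) and 0.52 at D28 (adjusted p = 0.00736). Sema4f passed the filter only with both its RAG1-/- D3 and D7 groups in it. Its calls on those days are therefore not independent of the filter. Sema4d and Sema4g, the other class 4 members on the array, were not tested, with highest group means of 4.91 and 5.03.

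Sema5a, a transmembrane semaphorin with thrombospondin repeats, carried the largest genotype differences of all members, at D3. At probe ILMN_2604226 the WT arrays read 7.32, 7.22 and 7.22 at D0, 9.49, 9.71 and 9.71 at D3, and 9.05, 9.52 and 9.29 at D7. The RAG1-/- arrays read 6.50, 6.61 and 6.59 at D0, 6.77, 6.84 and 6.86 at D3, and 7.17, 7.02 and 7.02 at D7. The genotypes did not overlap on any of these days, and the WT arrays were the higher ones. The difference was -2.81 at D3 (SE 0.15, adjusted p = 8.07e-15), or 7.02-fold, and -2.21 at D7, or 4.64-fold.

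In RAG1-/- callus a rise of Sema5a was called at D14 alone, at ILMN_2604226. At D3 and D7 every RAG1-/- array of that probe already lay above those of D0. The changes were 0.26 and 0.51 (adjusted p = 0.408 and 0.0283 in limma), short of the limits. At D14 its arrays read 8.33, 8.25 and 8.25 in RAG1-/- and 8.05, 7.92 and 8.00 in WT. The RAG1-/- rise against D0 was 1.71 (SE 0.15, adjusted p = 2.12e-09), and the genotype difference of 0.29 at that day was not called (adjusted p = 0.48). At D21 the RAG1-/- change was 0.72 (adjusted p = 0.000843 in limma), with every array above those of D0, and missed only the 2-fold limit. The gene was also lower in RAG1-/- at D0 by -0.69 and at D21 by -0.65, so that this probe was called lower on 4 of the 6 days.

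The second Sema5a probe, ILMN_2604224, gave the same early difference, with WT arrays of 8.57, 8.53 and 8.33 and RAG1-/- arrays of 6.01, 5.64 and 5.58 at D3. It differed by -2.73 at D3 and by -2.54 at D7 (SE 0.35 for each). At D0 its WT arrays were split at 6.39, 4.80 and 4.59, and the difference there was 0.62 (adjusted p = 0.239), opposite in sign to the other probe. The probes had the same sign on 3 of the 6 days. Sema5b, a related membrane ligand, was near the floor (group means of 4.41 to 5.30). Its call at D3 (-0.86, adjusted p = 0.0229) rested on WT arrays of 4.62, 6.57 and 4.73. Of these, replicate 2 alone stood far above the RAG1-/- arrays of 4.52, 4.37 and 4.43. Sema5b passed the filter only with its WT D3 group in it, so its D3 call is not independent of the filter.

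The class 6 ligand Sema6b, which binds A-type plexins, rose early in WT. At ILMN_2769285 the WT arrays read 5.89, 5.97 and 5.49 at D0, 7.94, 7.98 and 7.99 at D3, and 7.60, 7.96 and 7.95 at D7. The RAG1-/- arrays read 6.82, 6.66 and 6.51 at D0, 6.16, 6.35 and 6.39 at D3, and 6.94, 6.62 and 6.83 at D7. The order of the genotypes thus turned over between D0 and D3. The difference was 0.88 at D0 (adjusted p = 0.0243), -1.67 at D3 (adjusted p = 1.09e-05) and -1.04 at D7 (adjusted p = 0.00286), each with an SE of 0.28.

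A further Sema6b probe, ILMN_3158135, was called at D3 (-1.05, adjusted p = 0.036), although the arrays of the genotypes overlapped. Their SD was 0.82 in WT and 0.75 in RAG1-/-. The probe was also called at D28, where WT arrays of 5.29, 4.49 and 4.48 stood below RAG1-/- arrays of 6.40, 6.47 and 6.31. That D28 difference was 1.64 (SE 0.41, adjusted p = 0.00355), and the WT arrays were near the floor. The 2 probes had the same sign on 6 of 6 days. Sema6d, the ligand of Plxna1 on osteoclasts, was called between genotypes within a day only at D21 (0.65, adjusted p = 0.0476), with WT arrays of 4.40, 4.40 and 4.38, all near the floor, and RAG1-/- arrays of 4.75, 5.14 and 5.24. Its change from D0 to D7 also differed between genotypes, by -1.19 (adjusted p = 0.00893). Sema6d passed the filter only with its RAG1-/- D0 and D21 groups in it, so neither call is independent of the filter.

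Sema7a, a lipid-anchored semaphorin that acts through Plxnc1 and integrins, rose in callus of both genotypes. Its WT arrays read 4.96, 4.53 and 5.74 at D0, 6.94, 7.33 and 7.12 at D7, and 8.12, 7.98 and 7.96 at D14. The RAG1-/- arrays read 5.83, 6.05 and 5.83 at D0, 6.02, 5.85 and 5.99 at D7, and 7.55, 7.41 and 7.42 at D14. At D14 every array of either genotype was above every D0 array. The rise at D14 was 2.94 in WT (SE 0.37, adjusted p = 5.11e-07) and 1.56 in RAG1-/- (adjusted p = 0.00364), and the 2 changes differed by -1.38 (adjusted p = 0.0795). At D7 the WT change was 2.05 and the RAG1-/- change 0.05, and these differed by -2.0 (adjusted p = 0.00438). By D28 the WT arrays were at 7.00, 4.71 and 4.54, so that replicate 1 alone stayed high.

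Plxna2, an A-type plexin that serves class 3 and class 6 ligands, rose in either genotype but at different days. Its WT arrays read 8.27, 8.03 and 7.73 at D0, 9.89, 9.66 and 9.72 at D3, and 10.44, 10.16 and 9.92 at D7, and at D28 they were down to 7.67, 6.48 and 7.05. The RAG1-/- arrays read 7.57, 7.58 and 7.62 at D0, 7.75, 7.82 and 7.84 at D3, and 7.88, 8.29 and 8.07 at D7, and reached 9.48, 9.28 and 9.44 at D14 and 9.49, 9.46 and 9.46 at D21. The WT maximum therefore fell at D7 and the RAG1-/- maximum at D21. WT had risen by 1.75 at D3 and 2.17 at D7 (SE 0.26), RAG1-/- by 1.81 at D14 and 1.88 at D21.

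The genotype difference of Plxna2 turned its sign between D7 and D21. It was -1.95 at D3 (adjusted p = 2.94e-07), or 3.88-fold, -2.10 at D7 (adjusted p = 9.85e-08), 1.42 at D21 (adjusted p = 0.000142) and 1.40 at D28 (adjusted p = 0.000149). The methods' t-test gave adjusted p = 0.0727 at D28. At D14 the WT arrays were split, at 7.59, 8.91 and 8.90, below RAG1-/- arrays of 9.48, 9.28 and 9.44. The D14 difference of 0.93 (adjusted p = 0.0343) was 0.49 (adjusted p = 0.222) without WT D14 replicate 1, and 1.81 (adjusted p = 8.50e-05) without replicates 2 and 3.

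**Figure D4:**
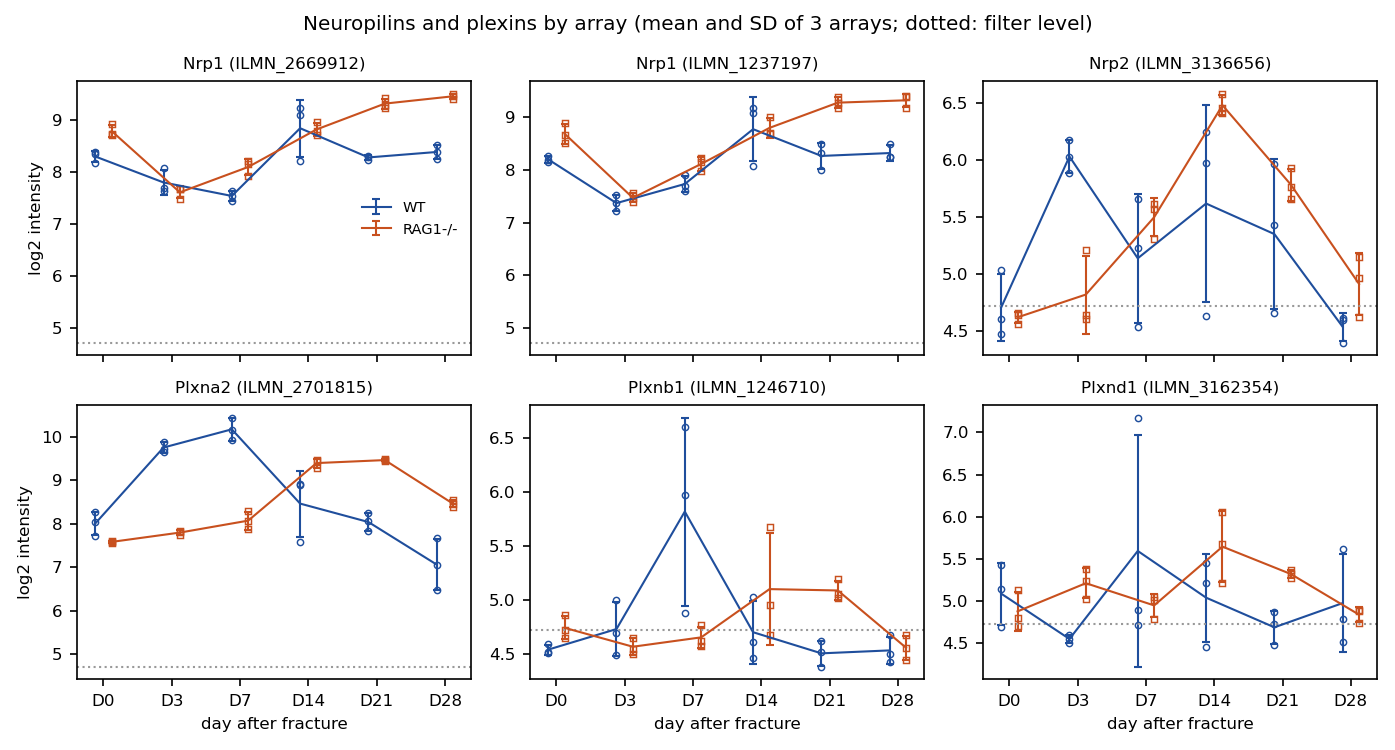
Log2 intensity of 2 Nrp1 probes and 1 probe each of Nrp2, Plxna2, Plxnb1 and Plxnd1 by day after fracture, drawn as the plot of the semaphorin probes, with bars for 1 SD of 3 arrays and the dotted line at 4.72. The WT mean of Plxna2 is highest at D7 (10.18) and the RAG1-/- mean at D21 (9.47), and both Nrp1 probes are higher in RAG1-/- at D21 and D28.

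The 250 bases before the start of Plxna2, Sema5a and Sema7a, 3 of the 4 genes called up in both genotypes (the other is Nrp2), are shown from RefSeq (GRCm38.p6, plus strand for each), to let their starts be compared. Capitals mark the GC box (GGGCGG or its reverse complement CCGCCC), and matches may overlap. 23 of the 28 member genes have such a window in the table.
Plxna2, chr1:194619579-194619828: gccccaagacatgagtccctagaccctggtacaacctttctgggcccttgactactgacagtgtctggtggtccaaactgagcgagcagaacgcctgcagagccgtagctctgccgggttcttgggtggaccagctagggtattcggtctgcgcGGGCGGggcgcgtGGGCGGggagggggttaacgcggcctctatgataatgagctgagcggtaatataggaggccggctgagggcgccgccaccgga
Sema5a, chr15:32244563-32244812: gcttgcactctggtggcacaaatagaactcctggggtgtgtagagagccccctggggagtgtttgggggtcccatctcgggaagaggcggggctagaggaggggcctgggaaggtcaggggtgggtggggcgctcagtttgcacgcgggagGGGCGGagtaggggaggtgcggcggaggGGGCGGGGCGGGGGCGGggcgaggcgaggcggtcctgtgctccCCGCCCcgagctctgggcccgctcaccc
Sema7a, chr9:57939862-57940111: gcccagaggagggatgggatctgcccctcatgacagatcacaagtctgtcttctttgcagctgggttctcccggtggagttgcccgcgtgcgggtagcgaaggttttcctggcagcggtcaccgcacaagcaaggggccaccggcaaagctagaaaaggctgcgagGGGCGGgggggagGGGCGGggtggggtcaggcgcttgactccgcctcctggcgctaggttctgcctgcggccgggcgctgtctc
The GC box was found 2 times in the Plxna2 window, 5 times in that of Sema5a and 2 times in that of Sema7a, and 33.0% of 32536 promoter windows of the same length hold at least 1. The letters of the RUNX core (TGTGGT, 14.0% of windows), the TATA box (TATAAA, 12.3%) and an AP-1 site (TGANTCA, 6.73%), searched on both strands, are in none of the 3 windows. These are matches of letters and not measured sites.

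Plxnb1, the receptor of Sema4d on osteoblasts, was near the floor in most groups. Its mean over all arrays was 4.79, and it passed the filter of 4.72 only with the WT D7 group in it. The call at D7 is therefore not independent of the filter. At D7 its WT arrays read 4.88, 6.60 and 5.97, all above RAG1-/- arrays of 4.62, 4.76 and 4.57, and the difference was -1.17 (SE 0.26, adjusted p = 0.000554). The WT rise against D0 was 1.28 (adjusted p = 0.000191). Plxnd1, an endothelial receptor of class 3 ligands, was not called in any comparison, and its largest genotype difference was 0.66 at D3 (adjusted p = 0.166). Its WT arrays at D7 read 7.18, 4.89 and 4.72, with replicate 1 alone high. The other 5 plexins on the array, Plxna1, Plxna3, Plxna4, Plxnb3 and Plxnc1, were not tested.

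Nrp1, the co-receptor of Sema3a and of vascular endothelial growth factor, did not follow the ligands. It fell from D0 to D3 in RAG1-/- callus and stood higher in RAG1-/- late in healing. At ILMN_2669912 the WT arrays read 8.30, 8.23 and 8.32 at D21 and 8.25, 8.39 and 8.52 at D28, and the RAG1-/- arrays 9.42, 9.24 and 9.29 and 9.41, 9.46 and 9.50. The genotypes were apart by more than the spread of either. The difference was 1.03 at D21 (SE 0.18, adjusted p = 7.10e-05) and 1.07 at D28 (adjusted p = 3.96e-05), or 2.05-fold and 2.10-fold. Probe ILMN_1237197 gave 1.01 (adjusted p = 0.000295) and 1.00 (adjusted p = 0.000284).

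At D3, Nrp1 was lower than at D0 in RAG1-/- by -1.18 and -1.22 at the 2 probes (SE 0.18 and 0.19), and lower in WT by -0.50 and -0.83, which did not reach 2-fold. At D14 the WT arrays were split, at 8.21, 9.09 and 9.23 at ILMN_2669912 and 8.08, 9.07 and 9.16 at ILMN_1237197, with replicate 1 the low one at both. No genotype difference was called there (-0.02 and 0.02), and without replicates 2 and 3 the differences were 0.61 (adjusted p = 0.0258) and 0.72 (adjusted p = 0.0191). At ILMN_2669912 Nrp1 was also called higher at D0 (0.49, adjusted p = 0.0495) and D7 (0.56, adjusted p = 0.0105), so that it was called on 4 of the 6 days. The D0 call was lost when dim probes were kept in the test (adjusted p = 0.0607), and ILMN_1237197 gave 0.49 (adjusted p = 0.0801).

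Nrp2, the co-receptor of Sema3f, had 1 tested probe of 3, and its maximum came at different days in the 2 genotypes. The WT arrays were at 6.17, 5.89 and 6.02 at D3 and the RAG1-/- arrays at 4.61, 5.21 and 4.64, a difference of -1.21 (SE 0.31, adjusted p = 0.00212). RAG1-/- reached 6.40, 6.57 and 6.45 at D14, a rise of 1.86 against D0 (adjusted p = 8.17e-05), and 5.76, 5.65 and 5.93 at D21, a rise of 1.16 (adjusted p = 0.00759). WT was called up against D0 only at D3, by 1.32 (adjusted p = 0.000946), and its arrays were far apart at D14 (4.63, 6.24 and 5.97). The D14 genotype difference was 0.86 (adjusted p = 0.156), with no overlap of the arrays, and 1.85 (adjusted p = 0.00123) without WT D14 replicates 2 and 3. Nrp2 was near the floor in both genotypes at D0, with arrays of 4.48 to 5.03.

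Over the 6 days together, in a fit to 12 pool means that blocked on day, none of the 21 members was called in limma, against 5.74% of all probes, and 4 had an unadjusted p under 0.05. Sema5a at ILMN_2604226 was lower in RAG1-/- on 5 of 6 days, by -1.03 on average (SE 0.39, adjusted p = 0.108). Nrp1 at ILMN_1237197 was higher on 6 of 6 days, by 0.50 (SE 0.19, adjusted p = 0.109), and at ILMN_2669912 by 0.49 on 4 of 6 days (adjusted p = 0.138). Sema4f was higher on 5 of 6 days, by 0.50 (adjusted p = 0.110). Plxna2 averaged -0.12 over the days (SE 0.51), with 3 days higher and 3 lower. With the 36 arrays and the pool as a random block, the first 4 of these probes were called (adjusted p = 0.000775 to 0.0143). That fit sets 1 correlation of arrays within a pool (0.42) for all probes. It thus counts technical arrays as partly separate, although only 12 pools hold separate mice, and these calls rest in part on technical repeats.

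The other 27 member probes were not tested. Their group means ran from 4.27 to 5.75, with 23 of them under 5 in every group, and the highest single array was at 6.99. The highest group mean was that of a further Sema3b probe, ILMN_3078526, in WT at D7 (5.75). The members just inside and just outside the filter were Sema5b (ILMN_2606570, mean 4.73) and a probe with a mean of 4.67. The genes wholly untested were Sema3c, Sema3e, Sema3g, Sema4d, Sema4g, Sema6a, Sema6c and the 5 plexins named above, 12 in all, so Sema4d and its receptor Plxnb1 could be compared only on the receptor side. For Sema7a, 2 further probes stayed near the floor (means of 4.41 and 4.38), although ILMN_2790357 moved.

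Genes that work with the semaphorins were counted from a list of 53 partners, of which 46 were on the array and 32 tested. At D3, 10 were higher and 3 lower in RAG1-/- (26.9% and 21% of all probes), and at D7 10 and 3 (27.4% and 19.3%). Their median difference was 0.19 at D3 and 0.41 at D7, where the median over all tested genes was -0.05 and -0.01. At D0 2 were higher and 1 lower (12.6% and 6.72% of all probes), at D14 1 and 1 (2.33% and 1.66%), at D21 5 and 3 (14.4% and 8.94%), and at D28 7 and 5 (19.1% and 9.19%).

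Of the collapsin response mediators, which carry the class 3 signal to the cytoskeleton, 3 were tested. Dpysl3 was lower in RAG1-/- at D0 (-1.34, adjusted p = 0.000378) and higher at D3 (2.39, adjusted p = 1.18e-08) and D7 (2.69, adjusted p = 1.56e-09), having fallen by 1.58 in WT at D3 and risen by 2.15 in RAG1-/-. Dpysl2 was higher by 0.81 (adjusted p = 0.000366) and 1.19 (adjusted p = 2.62e-06) at D3 and D7, and Dpysl4 was not called (0.63 and 0.81, adjusted p = 0.23 and 0.122). The vascular ligands and receptor that share the neuropilins were called too. Vegfa was higher in RAG1-/- by 2.31 at D3 and 2.07 at D7 and lower by -2.31 at D28, after a fall from D0 in WT of 3.96 at D3, and Vegfb differed by 1.03, 1.39 and -1.38 on those days. Flt1, a receptor of Vegfa, was lower by -2.17 at D3 and -1.60 at D7. Trem2, the co-receptor of Plxna1 in osteoclasts, was higher by 2.69 at D28, the day of the highest macrophage marker level in RAG1-/- (7.42).

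In the other guidance families (slits, netrins, ephrins and their receptors), 23 of the 37 genes on the array, from 41 listed, were tested. At D3 5 were higher and 7 lower in RAG1-/-, at D7 4 and 5, at D21 7 and 1, and at D28 4 and 3, with 3 higher at D0 and none called at D14. Among all probes 47.9%, 46.7%, 23.3%, 28.3%, 19.3% and 3.99% were called on these days, in the same order. In WT 5 had risen at D3, 4 at D7 and 6 at D14, and none had fallen on those days, where 11.9%, 11.1% and 7.49% of all probes rose. In RAG1-/- none was called at D3 or D7 (23 tested in limma), where only 2.97% and 2.94% of all probes were. At D14 3 rose and at D21 4 rose (2.32% and 3.31% of all probes). Efnb1, a membrane ligand of Eph receptors, had risen in WT by 2.57 at D3 and in RAG1-/- by 1.28 at D14 and 1.78 at D21. Slit2, a secreted repellent of Robo receptors, had risen by 1.09 at D3 in WT and by 2.10 at D14 in RAG1-/-. Efna1 had risen in WT by 2.55 at D3 and was not called for a change in RAG1-/- on any day.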

How the data were processed

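RNA of intact bone and callus was read on 36 MouseRef-8 arrays, 3 for each of 12 pools of 5 mice. The deposited values are log2 intensities, which the authors had quantile normalized between arrays (lumi) after pre-processing in beadarray. Tables with 264 further value columns, named by BeadChip position, were not used, because the labels do not pair them with samples. Groups came from the labels.

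Limma 3.58.1 in R 4.3.3 was fitted to the 12848 probes with a mean above 4.72, with a mean for each group, and the Benjamini-Hochberg adjustment ran over all of these probes. Differences between genotypes were called at an adjusted p under 0.05, changes against D0 under 0.01 and over 2-fold, and changes that differ between genotypes under 0.05 and over 2-fold. The difference over days used pool means with day as a block. The number of arrays limits the precision (median residual SD 0.383 on the log2 scale). The tests were tried on simulated data. Figures were drawn with matplotlib 3.10.9.

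The members and gene lists were chosen with earlier results of these data known. Full values were given for Sema3f, for members called in the same direction on 4 or more days, for up to 3 probes per direction with the largest called difference at each day and change in each genotype, and for probes of a gene that disagree. The other members were named afterwards to account for them, and partner and guidance genes were named after their values were seen. Alternatives changed the filter, probe choice, centring, array weights, arrays in the fit, test, limits, replicate block, days and pools. Those without the WT D3 and D7 arrays, without both WT D14 replicates 2 and 3, and over 2-fold as well were chosen after seeing the data.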

Additional observations from a re-analysis of the deposited data

Results flagged for a closer look

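The change against D0 differed between genotypes, by the test of that difference itself in limma, for 31 combinations of member probe and day. The values are the RAG1-/- change minus the WT change on the log2 scale, and all share the D0 arrays of their probe.

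Sema3f gave 9 of them, at ILMN_1248740 with -1.70 at D3, -1.40 at D7, -1.35 at D14 and -1.09 at D28, and at ILMN_2635631 with -3.06, -2.99, -2.63, -2.34 and -2.21 at D3, D7, D14, D21 and D28. Sema5a differed by -2.12 and -1.53 at D3 and D7 at ILMN_2604226 and by -3.35 and -3.16 at ILMN_2604224, where WT D0 replicates 2 and 3 were near the floor (4.80 and 4.59), as they were at Sema3f ILMN_2635631 (4.91 and 4.57), so that the size of these differences is set against a baseline near the floor. Sema6b differed at ILMN_2769285 by -2.55 at D3, -1.92 at D7 and -1.24 at D21, and at ILMN_3158135 by -2.08 at D3. Sema7a differed by -1.61 at D3 and -2.0 at D7, and Sema4a by -2.02 at D3 and -1.26 at D7. Sema3a differed by -1.12 at D3, and Sema6d (-1.19) and Plxnb1 (-1.37) at D7, all 3 near the floor in most groups.

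In the other direction, the change of Sema4b differed by 2.36 at D21 and 2.94 at D28. Plxna2 was the only gene with differences in both directions, of -1.53 at D3 and -1.68 at D7, and of 1.35 at D14, 1.85 at D21 and 1.82 at D28.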

How the results depend on the processing

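Alternatives were tried for 40 differences, those that the rule names and the values over the days of Sema5a (ILMN_2604226) and Nrp1 (ILMN_1237197). The values over the days were not called as reported. Of 459 alternative values, 415 kept their direction and their side of the limit, 42 lost the call, 2 gained it and none reversed. Most losses came when the arrays numbered 1, 2 or 3 were left out of every group, which leaves 2 arrays each.

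For the counts of members called between genotypes, array weights gave 8 at D0 (5 as reported) and 9 at D14 (1), no filter on dim probes gave 2 at D14, and the stricter filter (mean above 6) gave 8 at D3 (13) with fewer members left. A limit of over 2-fold as well gave 1 at D0, 7 at D7 (11) and 0 at D14. The fit of only the 6 arrays compared and the methods' t-test gave 0 at D14. Without the WT D3 and D7 arrays in the fit the count was 8 at D0. The calls of changes in WT were then 13 and of changes that differ 11, in both cases over D14 to D28 only. At D14, D21 and D28 the reported fit gave 4, 5 and 3 changes in WT, and 3, 4 and 4 changes that differ. The reported totals of 32 and 31 also hold D3 and D7. Without both WT D14 replicates 2 and 3 the D14 count was 6. With the brightest probe of each gene, WT changes numbered 21. Over the days the count was 4 with the pool as a random block (0), where arrays of a pool correlated at 0.42 and were counted as partly separate.

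With arrays left out by number, the counts ran from 2 to 6 at D0, 9 to 13 at D3, 5 to 11 at D7, 0 to 2 at D14 (single WT arrays included), 3 to 7 at D21 and 4 to 6 at D28, those of changes from 24 to 34 in WT and 6 to 13 in RAG1-/-, those of changes that differ from 22 to 33, and 0 over the days.

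The replicate numbers name technical arrays. Deviations of same-numbered arrays correlated at -0.03 to 0.04 over 18 pairs, none over 0.1, so the numbers do not pair them. With the replicate number as a block, 5, 13, 11, 1, 5 and 6 members were called from D0 to D28.

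Dim values limit Sema3a, Sema3b at ILMN_3019907, Sema4f, Sema5b, Sema6d, Plxnb1, Plxnd1 and Nrp2, which lie within about 1 log2 unit of the floor in most groups.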
